A study of Mus musculus with 4 samples.

Results

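Macrophages with complement C1q genes but little or no RNA of the resident-macrophage markers Folr2, Cd163 and Cbr2 were examined in transplanted mammary tumours. The method was single-cell RNA sequencing. The cells were chosen on measured counts. A barcode was kept when it held at least 500 unique molecular identifiers (UMIs, counted RNA molecules), at least 250 detected genes and at most 20% mitochondrial UMIs. Among kept barcodes, a phagocyte gate asked for at least 3 UMIs of Lyz2, Cd68 and Csf1r together, making up at least 0.1% of the barcode's UMIs, and for at most 1 Cd3 UMI. The population then needed at least 3 UMIs of C1qa, C1qb and C1qc together and at most 1 UMI of Folr2, Cd163 and Cbr2 together. It numbered 533 of 14555 kept barcodes and 533 of 1361 phagocyte-gate barcodes.

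The hosts were FVB/NJ mice, labelled 6 to 8 weeks old, that were either wild type (WT) or IL1α-/-. HER2+ H605 mammary tumour cells were injected into the mammary pad of both, and tumours were taken on day 14. The knockout was a property of the host, and the labels give the transplanted tumour cells no such deletion. There were 2 tumours per genotype, dissociated, depleted of dead cells and sequenced with droplet 3′ chemistry. The labels give 2 pairs of tumours collected on separate days and do not say which replicate numbers form a pair. Nothing in the labels describes the knockout allele.

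C1q is the recognition part of the classical complement pathway, and in tissues it is made mainly by macrophages and dendritic cells rather than by the liver. C1q-producing macrophages in tumours are known for taking up dying cells and lipid, for lysosomal genes and for MHC class II. MMP12 is the macrophage elastase, GPNMB is a transmembrane glycoprotein of lipid-laden macrophages, and CX3CR1 is the receptor for fractalkine, found on monocytes and on some tissue macrophages.

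The libraries held 23464120 and 29001333 UMIs from the WT tumours (replicates 1 and 2) and 6705368 and 15298532 from the IL1α-/- tumours, so depth differed between genotypes. Kept barcodes numbered 4001 and 4006 in WT and 3213 and 3335 in IL1α-/-, with median UMIs of 3143, 4209.5, 1361 and 2902. Any 2 libraries shared between 0 and 6 kept barcode sequences. The targeted gene, Il1a (chr2:129299610-129309972, GRCm38), had 67 and 112 UMIs over all kept barcodes of the WT tumours, and 1 and 0 UMIs in the IL1α-/- tumours. With 2 tumours per group, an exact permutation test over the 6 assignments of tumours cannot give a two-sided p below 0.333.

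The population held 156 and 287 barcodes in the WT tumours and 23 and 67 in the IL1α-/- tumours. Their median depths were 5406.5, 4553, 2783 and 4039 UMIs. Comparisons below that include the IL1α-/- replicate 1 tumour therefore rest on 23 barcodes and 74439 summed UMIs there at full depth. The WT tumours held 962826 and 1731055 summed UMIs, and IL1α-/- replicate 2 held 348716. Few barcodes lay at the edge of the rule: 14 had exactly 3 C1q UMIs and were inside, and 14 phagocyte-gate barcodes with at most 1 resident-marker UMI had 2 C1q UMIs and were outside. No resident-marker UMI was found in 462 members, 71 had 1, and 27 barcodes with 2 were just outside.

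Markers that the rule did not use were set beside those of T-gate barcodes. These held at least 2 Cd3 UMIs and fewer than 3 UMIs of Lyz2, Cd68 and Csf1r together. A UMI of Adgre1, which encodes F4/80, was found in 59.6% and 41.5% of the WT members and in 34.8% and 44.8% of the IL1α-/- members, against 0.0733% to 0.551% of Cd3-positive T-gate barcodes of the same libraries. Apoe, the lipid carrier, was found in 92.9%, 85.7%, 82.6% and 88.1% of members in the same order and in 1.05% to 7.65% of T-gate barcodes. T-gate barcodes were shallower than members in every tumour, with medians of 2873 and 4341 UMIs in WT and 1499 and 2984.5 in IL1α-/- tumours, and these shares are at full depth. Of 6034 T-gate barcodes, 9 had 3 or more C1q UMIs, a count that leaves out Cd3-positive barcodes with 3 or more phagocyte UMIs. Adgre1 and Apoe were each found in a larger share of members than of T-gate barcodes in every tumour. The T gate left out barcodes with more phagocyte RNA, so this contrast was partly set by the gates and is a description.

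Of the 5 markers given for the population, Mmp12, Gpnmb and Cx3cr1 were not found in most members of every tumour. At full depth Mmp12 was found in 40 of 156 and 50 of 287 WT members and in 4 of 23 and 21 of 67 IL1α-/- members. Gpnmb had no UMI in the WT replicate 1 and IL1α-/- replicate 1 members, and Cx3cr1 was found in 4.48% of IL1α-/- replicate 2 members at full depth against 62.8% in WT replicate 1.

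Markers of other cells were low but not absent. Summed over each list, members held 0.613 to 2.81 T cell UMIs per 10000 UMIs, 0.086 to 0.272 of natural killer cells, 0.403 to 1.09 of B cells, 0.172 to 2.88 of neutrophils, 1.29 to 1.69 of conventional dendritic cells, 0.269 to 0.43 of endothelium and 0 to 0.0173 of mast cells. The plasmacytoid dendritic cell list reached 4.24 to 11.6 and had 3 or more UMIs in 229 members. Its gene Irf8 held 306 of 560, 560 of 1154, 22 of 86 and 63 of 148 list UMIs in WT replicates 1 and 2 and IL1α-/- replicates 1 and 2. In the same order, Siglech was found in 3, 3, 1 and 0 members and Ccr9 in 1, 4, 1 and 0. Epithelial markers stood at 1.15 and 1.8 per 10000 in the WT members and at 0.269 and 0.459 in the IL1α-/- members, where Epcam, Krt8 and Krt18 had no UMI. Fibroblast markers stood at 5.41 in WT replicate 1 and at 0.134 to 0.728 in the other tumours. A doublet caller marked 5, 8, 1 and 0 members in WT replicates 1 and 2 and IL1α-/- replicates 1 and 2.

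The comparison of hosts asked how much of the tumour, and of its phagocytes, these macrophages made up with and without host IL-1α. They were 3.9% (95% Clopper-Pearson interval 3.32 to 4.55) and 7.16% (6.38 to 8.01) of kept barcodes in WT tumours, and 0.716% (0.454 to 1.07) and 2.01% (1.56 to 2.54) in IL1α-/- tumours. Both IL1α-/- tumours lay below both WT tumours. On average they made up 5.53% ± 2.31 of WT and 1.36% ± 0.914 of IL1α-/- barcodes (SD, 2 tumours each). The gap of -4.17 percentage points had a two-sided p of 0.333 in the exact permutation test.

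Within the phagocyte gate the order was the same. Members were 40.4% and 46.6% of gate barcodes in WT and 19.5% and 27.8% in IL1α-/- tumours, or 43.5% ± 4.37 and 23.6% ± 5.88 on average (SD, 2 tumours each). This gap of -19.9 points also had an exact permutation p of 0.333. The gate itself held 9.65% and 15.4% of kept barcodes in WT and 3.67% and 7.23% in IL1α-/- tumours. Gate barcodes with fewer than 3 C1q UMIs made up 47.2% and 44.5% of the gate in WT and 78.8% and 64.3% in IL1α-/- tumours.

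The shares were recomputed at equal depth. With every barcode thinned to 1000 UMIs before the gates, members were 40.1% and 44.1% of the gate in WT and 14.3% and 23.7% in IL1α-/- tumours, a difference of -23.1 points. Thinned to 2000 UMIs, which leaves out the shallower barcodes, the gate shares were 41.0% and 43.6% against 39.1% and 32.1%, a difference of -6.73 points. IL1α-/- replicate 1 then rested on 18 of 46 gate barcodes. The share of kept barcodes at 2000 UMIs was 4.31% and 5.97% against 2.1% and 2.52%, so the groups did not overlap at any of the 3 depths on either denominator. Intervals cover counting error only, and in shares of a tumour's barcodes fewer macrophages and less C1q RNA per macrophage cannot be told apart.

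**Figure D1:**
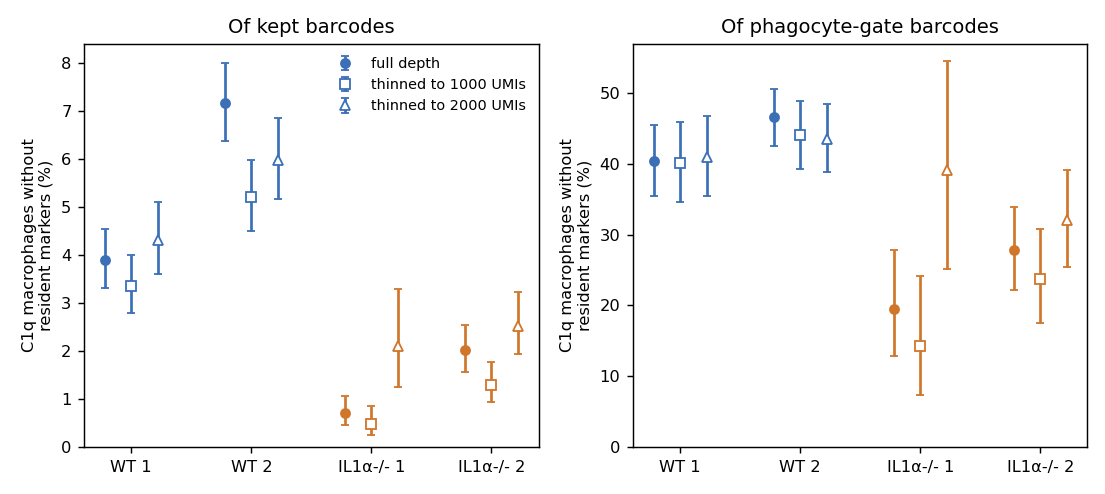
Share of C1q macrophages without resident markers in each tumour, as a percent of kept barcodes (left) and of phagocyte-gate barcodes (right), at full depth and with every barcode thinned to 1000 or 2000 UMIs; points are tumours and bars are 95% Clopper-Pearson intervals. The IL1α-/- tumours lie below the WT tumours on both axes, and the gap on the right is -6.73 points at 2000 UMIs against -19.9 at full depth.

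Mmp12, Gpnmb and Cx3cr1 were each found in a part of the members, and the order of the tumours differed between them. Shares of members with a UMI were compared after thinning members to 1000 UMIs, which kept 141 and 240 members in WT and 23 and 64 in IL1α-/- tumours. Members with fewer than 1000 UMIs, left out here, numbered 15, 47, 0 and 3 in that order.

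Mmp12 was found in 12.8% and 10.4% of WT members and in 17.4% and 23.4% of IL1α-/- members. Both IL1α-/- values lay above both WT values, with means of 11.6% ± 1.66 and 20.4% ± 4.28 (SD, n = 2 each; difference 8.82 points, exact permutation p = 0.333). The IL1α-/- replicate 1 value is 4 of 23 barcodes. At full depth the shares were 25.6% and 17.4% against 17.4% and 31.3%, and the groups overlapped (difference 2.84 points, exact permutation p = 1.0). Thinned T-gate barcodes had an Mmp12 UMI in 0% to 0.173%, and gate barcodes low in C1q in 1.3% to 8.78%.

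Of 9 Gpnmb-positive members at full depth, 7 came from IL1α-/- replicate 2. At 1000 UMIs it was found in 0 of 141 and 2 of 240 WT members and in 0 of 23 and 4 of 64 IL1α-/- members. At full depth, 7 members of IL1α-/- replicate 2 held 37 UMIs, 2 members of WT replicate 2 held 12, and the other 2 tumours held none. By counting error alone, 0 allows up to 1.92% of members with a Gpnmb UMI in WT replicate 1 and up to 13% in IL1α-/- replicate 1, which limits members with a UMI and not members expressing the gene. Thinned T-gate barcodes held no Gpnmb UMI in any tumour. The difference of 2.71 points (exact permutation p = 1.0) became -0.417 without IL1α-/- replicate 2. Of the 7 Gpnmb-positive members in that tumour, 5 also held an Mmp12 UMI.

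Cx3cr1 was highest in WT replicate 1. It was found in 39.7% and 5.83% of WT members and in 4.35% and 1.56% of IL1α-/- members at 1000 UMIs, with means of 22.8% ± 24.0 and 2.96% ± 1.97 (SD, n = 2 each; difference -19.8 points, exact permutation p = 0.333). Without WT replicate 1 the difference was -2.88 points. The WT SD exceeds the difference, and WT replicate 2 lay within 2 points of IL1α-/- replicate 1. T-gate barcodes at the same depth had a Cx3cr1 UMI in 2.02%, 4.04%, 10.5% and 1.82% (WT replicates 1 and 2, IL1α-/- replicates 1 and 2). Both IL1α-/- member values lay below the T-gate value of their own tumour. WT replicate 2 members (5.83%) lay near the T-gate value of that tumour and below the highest T-gate value. Only WT replicate 1 members lay far above every T-gate value. Gate barcodes low in C1q gave 16.8%, 7.51%, 16.9% and 6.08% in the same order.

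Mmp12 and Cx3cr1 were found together in 26 members of WT replicate 1 (of 40 and 98 positive) and in 10 of WT replicate 2 (of 50 and 57 positive). Independent detection would give 25.1 and 9.93, so the overlap was near that level. At 1000 UMIs the overlap was 5 and 0 members, where independent detection would give 7.15 and 1.46. Positive members were deeper: medians were 8421.5 against 4321 UMIs for Mmp12 and 7668 against 2513.5 for Cx3cr1 in WT replicate 1. The part of depth in the full-depth overlap was not tested.

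**Figure D2:**
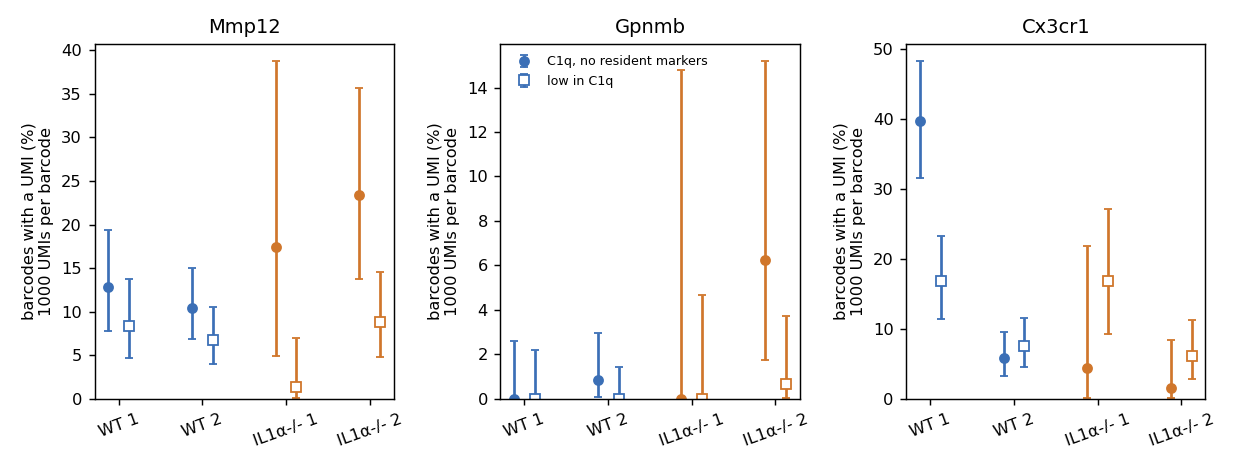
Percent of barcodes with a UMI of Mmp12, Gpnmb or Cx3cr1 in each tumour after thinning to 1000 UMIs, for C1q macrophages without resident markers (filled circles) and phagocyte-gate barcodes low in C1q (open squares); bars are 95% Clopper-Pearson intervals. Cx3cr1 stands at 39.7% in WT replicate 1 and below 6% in the members of the other tumours, and Gpnmb reaches 6.25% in IL1α-/- replicate 2.

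To compare hosts gene by gene, UMIs were summed over the members of each tumour and fitted by edgeR's quasi-likelihood test, and p was adjusted by Benjamini-Hochberg over all 6367 genes tested. At adjusted p under 0.05, 4 genes passed (0.0628% of those tested), 1 higher and 3 lower in IL1α-/- hosts. Unadjusted p was under 0.05 for 789 genes.

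Il1a itself was found in 29 of 156 and 22 of 287 WT members (57 and 44 UMIs), and in 0 of 23 and 0 of 67 IL1α-/- members, which by counting error alone allows up to 13% and 4.48% of members with a UMI. Its summed level was at least 5.31-fold lower in IL1α-/- hosts, against a floor of 3 counts over the group, but its adjusted p was 0.238 in edgeR's quasi-likelihood test. The shares of 18.6% and 7.67% of WT members compare with 0.0733% and 0.0689% of T-gate barcodes of the same tumours. Of the 112 Il1a UMIs in WT replicate 2, 44 were in members. In WT the level scaled to summed UMIs (CPM) was 61.6 and 26.8 in members and 1.255 and 7.356 in gate barcodes low in C1q.

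Thbs1 was the gene that rose in IL1α-/- hosts. It encodes thrombospondin 1, a secreted matrix glycoprotein that inhibits vessel growth and can activate latent TGF-β, and lies at chr2:118111876-118127133 (GRCm38), on the same chromosome as Il1a. Levels were 8.68 and 10.46 CPM in WT members and 127.3 and 370.8 in IL1α-/- members, with means of 9.57 ± 1.26 and 249 ± 172 (SD, n = 2 each). Both IL1α-/- tumours lay above both WT tumours, and the fitted change was 4.81 on the log2 scale (SE 0.49; edgeR's quasi-likelihood test, adjusted p = 0.033).

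The Thbs1 counts were small and spread over barcodes. UMIs numbered 8 in 3 barcodes and 17 in 7 barcodes in WT, and 10 in 4 barcodes and 120 in 33 barcodes in IL1α-/- tumours, with at most 21 in any barcode. Gate barcodes low in C1q held more in every tumour, 205.8 and 120.4 CPM in WT and 956.7 and 1135 in IL1α-/-, and the genotype effect in members minus that in low-C1q barcodes was 1.96 (log2, edgeR adjusted p = 0.38). Without IL1α-/- replicate 2 the log2 fold change was 3.59 with an adjusted p of 0.478, and over 17 alternatives it was positive in each and passed in 13, with adjusted p from 1.08e-26 to 0.478.

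The 3 genes that fell, Csn3 (kappa-casein, a milk protein), Lcn2 (the iron-binding protein lipocalin 2) and Wfdc18 (a secreted whey acidic protein family member), had most of their WT UMIs in 1 barcode per tumour. Csn3 stood at 186.6 and 265.7 CPM in WT and had no UMI in either IL1α-/- tumour, at least 31.7-fold lower, but 164 of 172 and 416 of 432 WT UMIs were in 1 barcode per tumour. Lcn2 had 151 and 233 WT UMIs, 146 and 217 of them in 1 barcode, and none in IL1α-/- members, at least 20.2-fold lower. Wfdc18 stood at 168.2 and 147.6 CPM in WT and at 0 and 3.09 in IL1α-/-, or -5.90 on the log2 scale (SE 0.60), and 129 of 155 and 224 of 240 WT UMIs were in 1 barcode. Each had an adjusted p of 0.033 in edgeR's quasi-likelihood test, and none had enough UMIs to be tested under a stricter lineage gate, which allowed no Cd3 UMI and at most 1 UMI each of epithelial (Epcam, Krt8, Krt18), fibroblast (Col1a1, Col1a2, Col3a1) and B cell genes (Cd79a, Cd79b, Ms4a1). Thbs1 was called under that gate, with a log2 fold change of 6.94 (edgeR adjusted p = 0.031).

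**Figure D3:**
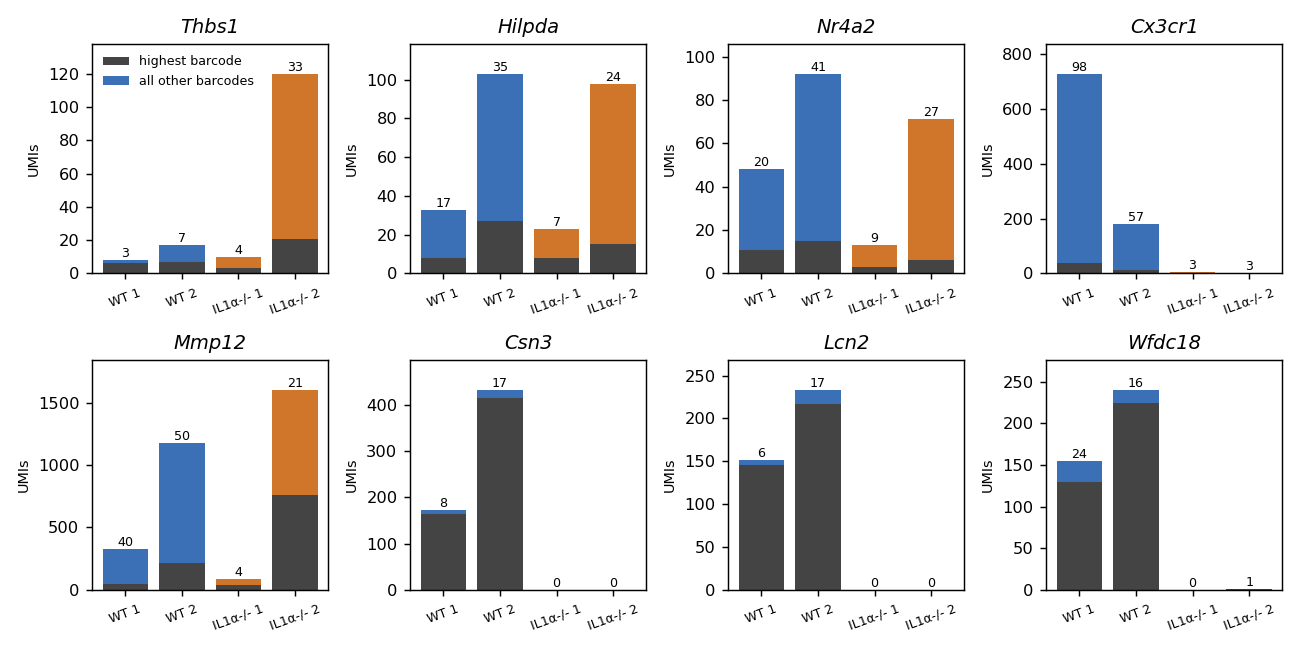
UMIs of 8 genes summed over the C1q macrophages without resident markers of each tumour, with the UMIs of the highest barcode in dark grey, those of all other barcodes in blue (WT) or orange (IL1α-/-), and the number of barcodes with a UMI above each bar. Thbs1 is spread over 33 barcodes in IL1α-/- replicate 2, whereas most Csn3, Lcn2 and Wfdc18 UMIs of each WT tumour are in 1 barcode; bars are counts and are not scaled to depth.

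The next genes by p did not pass. Hilpda, a lipid droplet protein induced by low oxygen, stood at 35.8 and 63.36 CPM in WT and 292.8 and 302.8 in IL1α-/- members (log2 fold change 2.56, edgeR adjusted p = 0.084). Lyz1 stood at 34.72 and 35.06 against 140 and 336.8 (2.90, adjusted p = 0.084), but 89 of its 109 UMIs in IL1α-/- replicate 2 were in 1 barcode, and its sequence is close to that of the gate gene Lyz2, so its counts are uncertain. Nr4a2 and Dusp5, both immediate early genes, had log2 fold changes of 1.87 and 2.35 (both adjusted p = 0.101). Among lower values, Epcam (edgeR adjusted p = 0.115) had no UMI in IL1α-/- members, and 28 of 42 and 57 of 74 WT UMIs were in 1 barcode per tumour.

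The remaining markers given for the population did not pass either. Mmp12 (chr9:7344381-7369499) stood at 355.9 and 725.2 CPM in WT and at 1095 and 4944 in IL1α-/- members (log2 fold change 2.50, SE 0.65, edgeR adjusted p = 0.238). Of the 1600 Mmp12 UMIs in IL1α-/- replicate 2, 763 were in 1 barcode. Cx3cr1 (chr9:119901616-120069879) stood at 790.9 and 111.3 against 50.92 and 9.27 (-4.54, adjusted p = 0.238). Apoe stood at 16850 and 5036 against 3042 and 6523, with overlapping groups (-1.19, adjusted p = 0.448). C1qb, a gene of the rule, stood at 3441 and 2486 CPM in WT and 1158 and 1276 in IL1α-/- members, given as a description. Gpnmb had too few UMIs to be tested.

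Gene lists are described by their counts and their median log2 fold change, beside a median of -0.02 over all genes tested. The lipid and lysosome list had 23 of 25 genes tested and none called, with 16 fitted higher in IL1α-/- hosts and a median of 0.73. Psap, a lysosomal saposin precursor, stood at 4443 and 6350 CPM in WT and 9675 and 11900 in IL1α-/- members (adjusted p = 0.236), and Ctsb, cathepsin B, at 2809 and 2775 against 4888 and 5766 (edgeR adjusted p = 0.226). Neither gene passed the test. Apoe, also in this list and more abundant than Ctsb in WT members, was fitted lower (-1.19, edgeR adjusted p = 0.448), with overlapping groups. The matrix protease list had 10 of 11 tested genes fitted higher, none called and a median of 0.57.

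The sterol synthesis list pointed the other way. Of 14 genes tested, 1 was fitted higher in IL1α-/- hosts, none was called and the median was -1.28. Hmgcs1, an early enzyme of the pathway, stood at 104.2 and 68.89 CPM in WT and 12.73 and 37.08 in IL1α-/- members (log2 fold change -1.45, edgeR adjusted p = 0.280). Idi1 was chosen after its values were seen. It had 48 and 65 UMIs in WT members and 0 and 2 in IL1α-/- members (-3.16, edgeR adjusted p = 0.194). Hmgcs1 had 1 and 12 UMIs in the IL1α-/- members.

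The glycolysis and hypoxia list had 14 of 15 tested genes fitted higher in IL1α-/- hosts, none called and a median of 0.67. Its most abundant gene, Gapdh, was the exception, at 1073 and 2044 CPM in WT and 942 and 1400 in IL1α-/- members. The IL-1 and NF-kB list had 13 of 19 fitted higher, none called and a median of 0.79, with the neutrophil chemokine gene Cxcl2 at 488.2 and 353.7 against 3412 and 1375 (log2 fold change 2.49, adjusted p = 0.115) and Il1b at 917.9 and 517.9 against 483.7 and 293.5 (-0.93, edgeR adjusted p = 0.370). Immediate early genes had 11 of 15 fitted higher and none called (median 0.36), Junb at 1397 and 1134 against 2228 and 2571 among them. Monocyte genes had 14 of 17 fitted higher, with Thbs1 the one called (median 0.46). Ccr2, of the same list and chosen after its values were seen, was fitted lower. It stood at 523 ± 23.6 CPM in WT and 199 ± 29.1 in IL1α-/- members (SD, n = 2 each; log2 fold change -1.36, edgeR adjusted p = 0.166).

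In these 5 lists the median lay within 0.3 of 0 and no gene was called: antigen presentation (5 of 16 fitted higher, -0.27), interferon response (9 of 13, 0.23), tissue macrophage (6 of 20, -0.14), resident and efferocytosis (8 of 9, 0.14), and complement outside C1q (6 of 9, 0.07). H2-Aa, an MHC class II chain, stood at 8340 and 6716 CPM in WT and 7154 and 9029 in IL1α-/- members. Suppressive and alternative activation genes had 8 of 15 fitted higher (median 0.02), with Retnla at 7233 and 10490 against 6352 and 22520 and Arg1 at 240.9 and 1341 against 687.4 and 1326, overlapping in both. Cell cycle genes had 7 of 10 fitted higher (0.41) and none called.

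The population was next set beside the 2 kinds of phagocyte nearest to it. The barcodes were separated on their own C1q and resident-marker counts, so the counts of called genes and the fold changes that follow describe the separation and are no test of it. Each fit kept the tumour as a block. Against the 704 phagocyte-gate barcodes low in C1q (182 and 274 in WT, 93 and 155 in IL1α-/-), 922 of 7433 genes (12.4%) were called, 451 higher and 471 lower in members. Low-C1q medians were 3441 and 4688.5 UMIs in WT and 1691 and 3574 in IL1α-/-.

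Lipid handling, lysosome and tissue macrophage genes were higher in members. Of 23 lipid and lysosome genes tested, 17 were called higher and 1 lower, with a median log2 difference of 1.13 against -0.02 for all genes. Apoe stood at 16790, 4986, 3017 and 6592 CPM in members of WT replicates 1 and 2 and IL1α-/- replicates 1 and 2, and at 2095, 1990, 906.9 and 985.7 in low-C1q barcodes, higher in 4 of 4 tumours (log2 difference 2.22, SE 0.24). The tetraspanin gene Cd63 (2.92), the osteopontin gene Spp1 (2.61), the cholesterol exporter gene Abca1 (2.11) and the lipid receptor gene Trem2 (1.40) were called higher as well, Trem2 with the reverse order in IL1α-/- replicate 1 (37.87 against 49.77). Lpl, lipoprotein lipase, was the gene called lower (-1.79).

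Of 20 tissue macrophage genes, 14 were called higher and 1 lower (median 1.21). They included Mertk, a receptor for dying cells (2.80), Pf4 (2.97), Ms4a7 (2.49) and Adgre1 (1.18), with Cd14, the lipopolysaccharide co-receptor, lower (-1.01). Complement genes outside C1q were called higher in 5 of 9 and lower in 1: C3ar1 (1.75), Cfb (1.62), C4b (2.15), Itgax (1.80) and C3 (0.79) were higher and Itgam lower (-0.67). MHC class II genes H2-Aa (1.06) and Cd74 (0.77) were among 5 of 17 antigen presentation genes called higher, with 1 lower. The resident and efferocytosis list, which holds no gene of the rule, had 6 of 10 tested genes called higher in members and 2 lower. Its median was 1.28 against -0.02 for all genes, so members were not without resident-type RNA.

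Monocyte genes were lower: 16 of 20 were called lower and none higher, with a median of -2.35. Ly6c2, the classical monocyte surface gene, stood at 9.726, 21.32, 37.87 and 15.61 CPM in members and at 271, 295.6, 779.7 and 528.9 in low-C1q barcodes, lower in 4 of 4 tumours (log2 difference -4.33, SE 0.23). Plac8 (-3.43), Vcan (-4.71), S100a4 (-2.47), Ccr2, the receptor for monocyte-recruiting chemokines (-1.42), and Thbs1 (-2.84) were called lower too. The neutrophil list had 5 of 6 genes called lower, among them S100a8 (-4.20). Glycolysis and hypoxia genes had none of 15 called.

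Ranked by fold, the named genes that were higher in members in 4 of 4 tumours began with C6, a terminal complement component (5.95, from 32, 47, 2 and 9 UMIs), H2-M2, a non-classical class I gene (5.20), Mfge8 (4.82), the growth factor gene Pdgfc (4.24), the proton pump subunit gene Atp6v0d2 (3.92) and the chemokine gene Ccl8 (3.83). Mfge8, which encodes a bridge to dying cells, had 660 of its 723 UMIs in IL1α-/- replicate 2 in 1 barcode. Ccl8 stood at 2440, 4775, 3320 and 11020 CPM in members and 621, 189.9, 188 and 479.2 in low-C1q barcodes. Dnase1l3 (3.66), Vcam1 (3.65), Dst (3.59) and Acp5 (3.43) followed. The collagenase gene Mmp8 had no UMI in members of any tumour and 33, 38, 3 and 7 in low-C1q barcodes. The next lowest were Ace (-6.18), Hdc (-5.42), Ifitm6 (-5.40), Serpinb2 (-5.32) and Adgre4 (-4.94), then Vcan, Hp (-4.66), Cxcl3 (-4.43) and Ly6c2.

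Against the C1q macrophages with resident markers, the fit used WT replicates 1 and 2 and IL1α-/- replicate 2, since IL1α-/- replicate 1 had 2 such barcodes. They numbered 48, 55 and 19. Of 5308 genes tested, 176 were called (3.32%), 65 higher and 111 lower in members. Of 13 matrix protease genes tested, 2 were called higher in members, Mmp12 and Mmp13, and 2 lower, the protease inhibitor gene Timp2 (-1.05) and the gelatinase gene Mmp9 (-2.84), with a median of 0.41 against 0.02 for all genes. Mmp12 stood at 358.1, 725 and 4899 CPM in members and 56.14, 179.7 and 598.8 in resident-type barcodes (log2 difference 2.56, SE 0.23). Mmp13, a collagenase gene at chr9:7272514-7283331, stood at 72.05, 125.4 and 330.7 against 0, 24.14 and 31.52 (3.11). Il1b stood at 923.6, 517.8 and 290.9 against 118.9, 91.21 and 47.28 (2.71), and Ptgs2, the inducible cyclooxygenase gene, was higher by 2.62.

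Other named genes higher in members were Tlr12 (4.95), Lyz1 (3.95), Ocstamp, a fusion gene of osteoclasts (3.76), the cystine transporter gene Slc7a11 (3.09), Klrb1b (2.88) and the T cell chemokine gene Cxcl9 (2.56). In IL1α-/- replicate 2, 89 of 109 Lyz1, 30 of 32 Ocstamp and 17 of 27 Slc7a11 UMIs were in 1 barcode each. Ocstamp was found in 19 and 14 WT members and was not tested under the stricter lineage gate. In the IL-1 and NF-kB list 4 of 17 genes were called higher and 2 lower: Il1b, Ptgs2, Cxcl2 (1.77) and the receptor antagonist gene Il1rn (1.14) were higher, and the monocyte chemokine genes Ccl7 (-1.73) and Ccl12 (-1.64) lower. Antigen presentation genes had 3 of 16 called higher, Ciita (1.26), H2-Ab1 (0.82) and Cd86 (1.16). The lipid and lysosome list differed in 1 of 24 genes, Lgals3 (0.95), with a median of -0.08. Apoe was -0.25 and Trem2 -0.16 there, neither called, and Cx3cr1 was 1.24 and not called.

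Genes of the resident and efferocytosis list that the rule did not use were lower in members in 10 of 12 tested and higher in 1, with a median of -1.75 against 0.02 for all genes. Selenop, which encodes the plasma selenoprotein, stood at 1521, 967.9 and 1721 CPM in members and 6407, 2951 and 4428 in resident-type barcodes (log2 difference -1.69). Gas6, a ligand for receptors of dying cells (-3.23), F13a1, a clotting factor subunit (-3.64), Mrc1, the mannose receptor (-1.75), and Stab1 (-2.04) were lower, while Axl, a receptor for Gas6, was higher (1.48). The largest named differences were Ednrb (-4.60), Tmem8 (-4.30) and Adcy3 (-3.87), followed by F13a1, Rcn3 (-3.53), Gja1 (-3.45), Gas6, Cela1 (-3.14), Etv1 (-3.07) and Nxpe5 (-2.96).

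The members sat between the other phagocytes for some genes and apart from both for others. Selenop and Ccl8 were lowest in low-C1q barcodes and highest in resident-type barcodes, with members between. F13a1 was lower in members than in both neighbours, and Mmp13 was higher in members than in both in every tumour with the 3 populations.

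**Figure D4:**
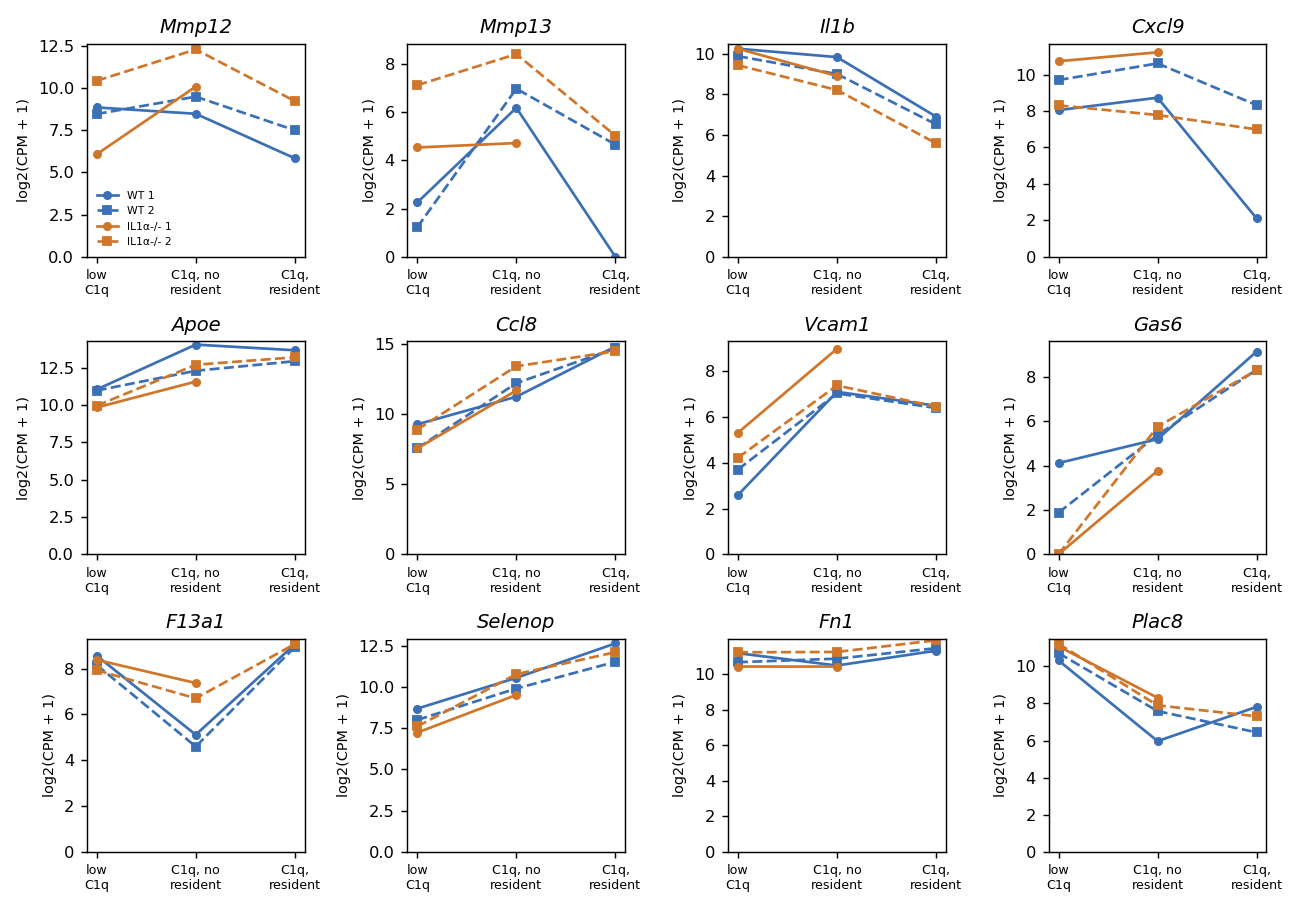
Levels of 12 genes as log2(CPM + 1) of UMIs summed per tumour in phagocyte-gate barcodes low in C1q, C1q macrophages without resident markers and C1q macrophages with resident markers; lines join the populations of 1 tumour, and IL1α-/- replicate 1 has no resident-type point. Mmp13 peaks and F13a1 dips in the C1q macrophages without resident markers, and Selenop climbs from left to right.

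Whether the host's genotype acted differently on members and on low-C1q phagocytes was tested with an interaction term in the same kind of edgeR fit. Of 7433 genes, 3 passed (0.0404%): Mfge8, F13a1 and Mmp13. F13a1 stood at 33.5 and 23.14 CPM in WT and 164.1 and 103 in IL1α-/- members, and at 376.4 and 284.2 against 331.8 and 242 in low-C1q barcodes. The levels were higher in IL1α-/- members and slightly lower in IL1α-/- low-C1q barcodes, with a difference of effects of 2.40 (log2, SE 0.34, adjusted p = 0.019), and the stricter lineage gate gave 2.23 with an adjusted p of 0.0627. Within members alone, F13a1 did not pass (log2 fold change 2.12, adjusted p = 0.118).

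Mmp13 differed in the opposite direction (difference of effects -4.24, SE 0.61, edgeR adjusted p = 0.019). Low-C1q barcodes held 3 and 2 UMIs in WT and 4 and 86 in IL1α-/- tumours, or 3.764 and 1.338 against 22.12 and 137.8 CPM. In members the levels were 71.32 and 124.2 in WT and 25.25 and 337.2 in IL1α-/-, overlapping, where the lower IL1α-/- value is 2 UMIs in 1 barcode of replicate 1. The Mfge8 difference (4.26, SE 0.60, adjusted p = 0.019) was 1.25 with an adjusted p of 0.869 under the stricter lineage gate, and 660 of its 723 UMIs in IL1α-/- replicate 2 members were in 1 barcode. No gene passed when IL1α-/- replicate 2 was left out, where 618 genes had an unadjusted p under 0.05.

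Members with and without an Mmp12 UMI were compared within WT replicates 1 and 2 and IL1α-/- replicate 2, the tumours with at least 10 barcodes of each kind (40, 50 and 21 positive). As with the populations, the members were separated on counts from the same barcodes, positive members were deeper, and the values are descriptive. Of 5251 genes tested, 32 were called (0.609%), 14 higher and 18 lower in Mmp12-positive members, with Mmp12 itself left out.

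Mmp13 was the most raised gene, at 165.5, 454.2 and 841.4 CPM in positive members and 24.19, 17.8 and 0 in negative members of WT replicates 1 and 2 and IL1α-/- replicate 2 (log2 difference 4.42, SE 0.47). It was higher in 3 of 3 tumours, and was found in 18, 21 and 6 members. The fatty acid receptor gene Cd36 (3.23), the fusion gene Dcstamp (2.11), Lpl (1.98), Klf9 (1.83), Rhoc (1.80), Adam8, a surface metalloprotease gene (1.72), the arginine transporter gene Slc7a2 (1.59), Alcam (1.29) and the fibronectin gene Fn1 (1.23) were also higher. Fn1 stood at 2385, 3097 and 3724 CPM against 954.7, 1485 and 1498.

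Resident-type and interferon genes were lower in Mmp12-positive members. F13a1 had 0, 2 and 0 UMIs in positive members and 31, 36 and 33 in negative members (log2 difference -4.42). Selenop stood at 1028, 294.5 and 685.6 CPM against 1735, 1178 and 2351 (-1.49). Gas6 (-2.89), Maf, a transcription factor (-1.97), Clec10a (-1.51), Vcam1 (-1.38), Ly6a (-2.91), Ly6e (-1.99) and Ifitm3 (-1.45) were lower in 3 of 3 tumours as well. Wfdc18 was lower as well (-4.41), with the UMIs in single barcodes given above. The resident and efferocytosis list had 4 of 9 genes called lower and none higher, and the sterol list had 12 of 13 fitted higher, none called and a median of 0.69 against 0 for all genes. With members thinned to 1000 UMIs, 1 gene, Mmp13, was called.

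Mmp12 and Mmp13 lie close together on chromosome 9. Against low-C1q barcodes the log2 difference was 2.69 for Mmp13, higher in 4 of 4 tumours, and 1.33 for Mmp12, which was higher in 3 of 4 and lower in WT replicate 1 (354.4 against 460.4 CPM). The 250 bases before their annotated starts were searched, and only the windows that hold the motif below are printed. The genes were taken because both were higher in members than in resident-type macrophages and Mmp13 led the genes of Mmp12-positive members. Both genes are on the plus strand, and the sequences are from RefSeq on GRCm38.p6. Capitals mark TGANTCA, the core motif of AP-1 factors, which reads the same on both strands. It was found in 2217 of 32851 windows of 250 bases before annotated mouse starts (6.75%).
Mmp13, chr9:7272264-7272513: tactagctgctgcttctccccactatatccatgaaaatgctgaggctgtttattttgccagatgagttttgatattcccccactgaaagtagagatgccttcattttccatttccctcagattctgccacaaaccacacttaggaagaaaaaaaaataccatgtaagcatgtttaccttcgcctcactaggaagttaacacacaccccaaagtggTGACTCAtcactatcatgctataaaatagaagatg
Mmp12 second start, chr9:7347124-7347373: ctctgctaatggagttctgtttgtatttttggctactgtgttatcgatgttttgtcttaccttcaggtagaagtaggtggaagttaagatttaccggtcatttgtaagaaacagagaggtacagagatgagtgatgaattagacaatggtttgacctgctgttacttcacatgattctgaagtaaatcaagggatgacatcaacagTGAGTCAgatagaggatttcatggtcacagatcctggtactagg
The match begins 35 bases before the Mmp13 start and 44 bases before the second annotated Mmp12 start, which lies within the Mmp12 gene span given above. The window before the other Mmp12 start (chr9:7344147-7344396), not printed, holds none. A match is a description of the letters only.

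Cx3cr1-positive and Cx3cr1-negative members could be set side by side in the WT tumours alone (98 and 57 positive barcodes). The fit rests on 2 tumours and leaves 1 residual degree of freedom, and positive members were deeper (9027 against 3420.5 median UMIs in WT replicate 2). Of 6512 genes tested, 97 were called (1.49%), 41 higher and 56 lower in positive members. Under the stricter lineage gate, 28 genes were called, all of them among the 97.

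Among those 28, Apoe stood at 19700 and 5739 CPM in Cx3cr1-positive members and 5571 and 4481 in negative members (log2 difference 1.09, SE 0.21). Tmem119, a gene best known from microglia, stood at 145.6 and 37.36 against 4.698 and 14.91 (2.26), and Pmepa1, a target and inhibitor of TGF-β signalling, at 1127 and 380.3 against 155 and 179.9 (1.86). Gpr183 (1.53, in 38 and 36 members) and Ltc4s (1.19, in 36 and 20) were higher too. Siglech (3.57) was found in 3 members of each WT tumour, with 11 of 13 and 18 of 30 UMIs in 1 barcode, and Slpi (2.49) had 23 of 23 and 23 of 36 UMIs in 1 barcode. These genes were selected on the stricter gate after the values were seen.

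Retnla, a gene of alternative activation, stood at 1685 and 5393 CPM in Cx3cr1-positive members and at 25550 and 12940 in negative members (log2 difference -2.59, SE 0.35), lower in 2 of 2 tumours. The ribonuclease genes Ear2 (-3.27) and Ear1 (-2.51), near-identical relatives whose counts may be split, were lower. So were the chemokine genes Ccl9 (-1.93) and Ccl6 (-1.89), Fcrls (-2.46), S100a4 (-1.38), F13a1 (-2.29) and Pf4 (-1.55). Lyz1 was lower by the widest margin (-5.89), with the uncertainty of its counts given above. It was found in 8 and 13 WT members, with 10 of 32 and 33 of 57 UMIs in 1 barcode. Complement genes outside C1q had 3 of 9 called lower, C3 (-1.53), Cfp (-1.46) and C4b (-1.88).

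Many genes at the top of the ranking by fold had most of their UMIs in few barcodes. Col11a1 (15 and 22 UMIs) and Col9a1 (30 and 15) had UMIs in Cx3cr1-positive members only. Tm4sf1 (7.04), Csn3 (6.04), Fxyd3 (5.26), Clca3a2 (4.94), Lcn2 (4.73) and Wfdc18 (4.06) were higher there. Under the stricter lineage gate 7 of these 8 genes had too few UMIs to be tested, and Wfdc18 was -0.93 and not called. Csn3, for example, had 164 of 172 and 416 of 432 UMIs in 1 barcode per tumour. Col1a2 (-4.67), Col3a1 (-4.17), Col1a1 (-3.80) and Timp1 (-3.13) were lower, with 99, 65, 65 and 128 UMIs in 1 WT replicate 1 barcode each. Of the cell cycle list, 4 of 11 genes were called higher, Birc5 (3.72), Top2a (1.99), Mki67 (1.44) and Hmgb2 (1.08), and none of these was among the 28. Atp1b1 (3.86) was, from 2 and 4 barcodes, and Cd209e (-3.66) and Hebp2 (-2.48) were not, although their values under that gate were -3.37 and -2.18 and they were found in 5 and 16 and in 13 and 32 members.

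**Figure D5:**
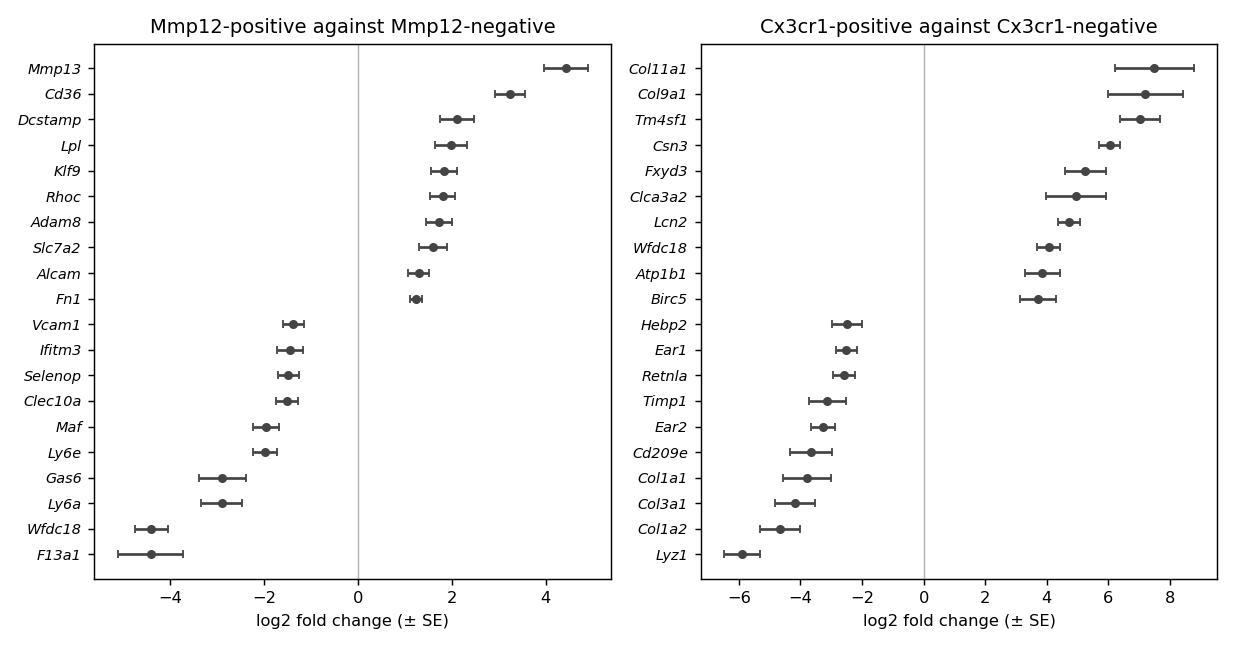
Named genes between Mmp12-positive and Mmp12-negative members (left; WT replicates 1 and 2 and IL1α-/- replicate 2) and between Cx3cr1-positive and Cx3cr1-negative members (right; WT replicates 1 and 2), as fitted log2 fold change with standard error. Mmp13 leads the left panel at 4.42, and the genes from Col11a1 to Wfdc18 at the top of the right panel had most of their UMIs in 1 barcode per tumour; Col11a1 and Col9a1 had no UMI in negative members, so their fitted values are no measure of size.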

How the data were processed

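The deposited values are raw UMI counts per gene and barcode, made by the authors with Cell Ranger 3.1.0 per the submitters' processing notes. Per the file headers the matrices list human and mouse features for 6794880 barcodes each, and the 31053 mouse genes were used. Human UMIs were 0.00522% to 0.00759% of each library. Barcodes above 20% mitochondrial UMIs numbered 213 and 141 in WT and 19 and 27 in IL1α-/- tumours. No doublet filter was applied in the main analysis. Gene positions come from GENCODE vM21, which matched 31011 gene identifiers.

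The members, gene lists and tests were chosen with earlier results of these data known. UMIs were summed per tumour and population and fitted with edgeR 4.0.16 (TMM scaling, filterByExpr, quasi-likelihood test, Benjamini-Hochberg over all genes tested, threshold 0.05). Between hosts, p-values weigh the difference against the spread between tumours. In fits with the tumour as a block, they weigh the within-tumour difference against its spread over tumours. DESeq2 1.42.0 was an alternative. A population entered a fit where a tumour held at least 10 barcodes of it. Shares used exact permutation tests in SciPy 1.17.1. Named genes were the given markers and Il1a; between hosts, the called genes and the next by p up to 5 in each direction; between populations and states, the 10 called genes of largest fold in each direction that moved one way in every tumour; and within lists, the called genes or the most abundant. Ribosomal, mitochondrial and unnamed gene models were not named. Some items of the lists are not reported here. Scripts were tested on simulated data. Counting was taken as deposited, so reads of near-identical or overlapping genes may be split.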

Additional observations from a re-analysis of the deposited data

Results flagged for a closer look

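A different genotype effect in C1q macrophages without resident markers than in phagocyte-gate barcodes low in C1q was found by an interaction term for 3 genes (edgeR's quasi-likelihood test, adjusted p = 0.019 each). For Mmp13 the difference of effects was -4.24 (log2): the level was higher in both IL1α-/- tumours than in both WT tumours among low-C1q barcodes and overlapped among members, where the lower IL1α-/- value is 2 UMIs in 1 barcode. For F13a1 it was 2.40, with members higher in both IL1α-/- tumours. For Mfge8 it was 4.26, and 660 of the 723 UMIs of IL1α-/- replicate 2 members were in 1 barcode.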

How the results depend on the processing

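Shares of members among kept and gate barcodes kept their sign under every gate, depth and left-out tumour that was run, and no share test could pass. The Gpnmb share difference (2.71) ranged from -0.417, without IL1α-/- replicate 2, to 5.83 points with a tumour left out. Genes called between hosts (4) became 22 with the replicate number as a block, 37 by DESeq2, 245 with no low-count filter, 26 in Cx3cr1-negative members, 1 with doublets removed and 1 under the stricter lineage gate, and ranged from 0 to 188 when each tumour was left out (62 without WT replicate 1 and 188 without WT replicate 2). They were 0 with sums thinned to the smallest (1209 genes tested, 199 at unadjusted p under 0.05), at most 10% mitochondrial UMIs (806 unadjusted) or no resident-marker UMI (736 unadjusted); without IL1α-/- replicate 2 they were 0 as well (751 unadjusted). The 4 genes were among those called with the block, by DESeq2 and with no filter. Against resident-type macrophages, 176 became 94 by DESeq2, 360 with no filter and 75 thinned, and ranged from 68 (without WT replicate 1) to 442 (without IL1α-/- replicate 2). Against low-C1q barcodes, 922 became 553 by DESeq2 and 397 thinned, and ranged from 552 (without WT replicate 2) to 737. The 3 interaction calls became 44 with no filter and 1 under the stricter lineage gate, and ranged from 0 (without IL1α-/- replicate 2) to 58 (without WT replicate 2), with 22 without WT replicate 1 and 1 without IL1α-/- replicate 1. The 32 calls by Mmp12 became 21 by DESeq2, 190 with no filter, 1 thinned and 18 with doublets removed, and ranged from 1 (without WT replicate 2) to 86 (without IL1α-/- replicate 2). The 97 calls by Cx3cr1 became 10 by DESeq2, 195 with no filter, 168 with positive members needing 2 UMIs, 1 thinned, 64 with doublets removed and 28 under the stricter lineage gate; leaving a tumour out gives no test there. The cause was not tested in any of these.

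The labels do not tie replicate numbers to the collection pairs, and the deviations of same-numbered tumours had r = 0.0286 over 6373 genes (2 pairs), which does not settle it; within the replicate numbers the share of kept barcodes differed by -3.18 and -5.16 points. The contrast by Gpnmb was not run, since no tumour held 10 positive members. The stricter lineage gate for populations, states and the interaction, the Cx3cr1-negative fit, and DESeq2 and RLE scaling for the states were chosen after seeing the data. IL1α-/- replicate 1 entered with 23 members and 74439 UMIs, which limits what low-count genes can show there.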
